A study of Mus musculus with 6 samples.

Results

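The 7 genes of the class II and class IV histone deacetylases were examined in inguinal white adipose tissue (IngWAT) of mice that lack *Hdac3* in fat. They are *Hdac4*, *Hdac5*, *Hdac7* and *Hdac9* of class IIa, *Hdac6* and *Hdac10* of class IIb, and *Hdac11*, the single member of class IV. They were taken by name from the 46517 genes of the counted annotation, and all 7 passed the filter on low counts that left 14967 genes for testing. The question was whether any of them was expressed at a higher level after the loss of *Hdac3*.

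The control mice carried floxed *Hdac3* alleles on a C57Bl6 background. The knock out mice, called H3atKO, carried the same floxed alleles together with an *Adipoq*-cre transgene from a B6;FVB line. The adiponectin promoter drives Cre in adipocytes, so that the other cells of the tissue keep *Hdac3*. All mice ate chow and were 5 to 9 months old according to the labels. Each of the 3 samples per genotype was a pool of RNA from 2 or 3 mice, and the counts that fell on genes were 23865507 in the smallest library and 35200685 in the largest. In whole tissue, fewer cells of a type and less RNA per cell cannot be told apart.

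Histone deacetylases remove acetyl groups from lysines and fall into classes by sequence. Class IIa proteins have little deacetylase activity of their own. They bind transcription factors of the MEF2 family, recruit the NCoR corepressor complex together with HDAC3, and leave the nucleus when kinases phosphorylate them and 14-3-3 proteins bind. Of class IIb, HDAC6 is a mainly cytoplasmic enzyme that acts on tubulin, HSP90 and cortactin, and HDAC10 deacetylates polyamines. HDAC11 removes long fatty acyl groups from proteins.

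The promoters of the family differ in base composition. RefSeq (GRCm38.p6) gave 10 start sites for 6 of the 7 genes, with no entry for *Hdac10*. The 250 bases before each start were read on the gene's strand and compared with the same window at 32841 starts of 27018 genes, which hold a median of 6 CG dinucleotides and a median GC content of 52.4%. The next pair of windows shows the extremes of the family, with CG dinucleotides in capitals. The *Hdac7* window lies at chr15:97831496-97831745 on the minus strand and holds 25 CG, more than 89.3% of all windows. The *Hdac9* window at the outermost start lies at chr12:34917096-34917345, also on the minus strand, and holds 0.
*Hdac7*: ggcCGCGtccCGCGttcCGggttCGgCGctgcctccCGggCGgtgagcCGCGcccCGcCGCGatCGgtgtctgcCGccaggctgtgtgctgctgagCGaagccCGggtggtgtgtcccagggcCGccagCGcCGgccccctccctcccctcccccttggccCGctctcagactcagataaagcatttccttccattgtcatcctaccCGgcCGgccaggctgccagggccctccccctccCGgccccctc
*Hdac9* outermost start: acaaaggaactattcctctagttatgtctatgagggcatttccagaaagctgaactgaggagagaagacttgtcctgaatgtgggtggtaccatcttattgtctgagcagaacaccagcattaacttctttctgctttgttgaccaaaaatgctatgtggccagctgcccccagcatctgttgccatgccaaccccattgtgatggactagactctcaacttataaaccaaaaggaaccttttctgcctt

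The letters TATTTTTA or their reverse complement TAAAAATA, part of the sequence that MEF2 factors bind, stood in 806 of all windows (2.45%) and in 2 of the 10 windows of the family. Those windows belong to *Hdac5*, at chr11:102230173-102230422, and to an inner start of *Hdac9*, at chr12:34528890-34529139, both on the minus strand. They are shown because class IIa proteins act through MEF2, with the motif in capitals. In *Hdac5* the motif ends 11 bases before the start, and in *Hdac9* it ends 157 bases before it. A match of letters is a description of the window only. The other windows held 23 CG in *Hdac4*, 17 in *Hdac6*, 17 in *Hdac11*, 12 in *Hdac5* and 2 at the inner start of *Hdac9*, and the other starts of *Hdac7* had 21, 6 and 5.
*Hdac5*: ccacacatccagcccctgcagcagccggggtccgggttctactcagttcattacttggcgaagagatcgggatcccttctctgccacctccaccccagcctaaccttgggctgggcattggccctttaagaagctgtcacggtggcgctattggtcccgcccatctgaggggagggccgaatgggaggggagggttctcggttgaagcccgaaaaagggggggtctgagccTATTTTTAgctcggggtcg
*Hdac9* inner start: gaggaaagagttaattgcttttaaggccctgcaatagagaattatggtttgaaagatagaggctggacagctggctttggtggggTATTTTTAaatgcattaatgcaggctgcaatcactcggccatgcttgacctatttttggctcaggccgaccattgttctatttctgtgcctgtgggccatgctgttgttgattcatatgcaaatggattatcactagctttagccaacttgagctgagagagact

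Most of the family was at a lower level in H3atKO than in floxed IngWAT, and *Hdac9* was at a higher one. Values are in cpm, the counts of a gene scaled to a common library size with TMM, a factor that evens out library composition. In 5 genes (*Hdac5*, *Hdac7*, *Hdac6*, *Hdac10* and *Hdac11*) every H3atKO sample lay below every floxed sample, and 28.6% of all tested genes were lower in this way. Only *Hdac9* of the 7 had every H3atKO sample above every floxed sample, as did 23.2% of all tested genes. With limma voom, 2 of the 7 genes fell at an adjusted p under 0.05 (*Hdac7* and *Hdac11*), against a background of 7.07% of all tested genes called lower. None of the 7 was called higher (0 of 7, against a background of 9.42%). At an unadjusted p under 0.05 the counts were 1 higher and 5 lower, against 3056 higher and 3506 lower of all 14967 tested genes. The median log2 fold change was -2.59 over the 7 genes and -0.09 over all tested genes.

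Replicate numbers were taken to pair the samples across genotypes because same-numbered samples deviated together in these data. The sample labels state no pairing, and a block chosen from the data it is used on can give p-values that are too small. With the replicate number as a block the calls were 5 lower and 1 higher (backgrounds of 28.7% and 24.8%). The edgeR test also called 5 lower and 1 higher (backgrounds of 18.4% and 12.8%), as did DESeq2 (23.2% and 19.7%). In all 3 of these fits the genes called were those whose groups did not overlap. Without floxed replicate 3, limma voom called the same 6 genes (backgrounds of 25.9% lower and 18.5% higher), and with any other single sample left out it called 0 of 7, with 1 higher and 4 or 5 lower at an unadjusted p under 0.05. In those 5 fits few genes were called at all, 1 to 395 higher and 0 to 139 lower of 14736 to 14942 tested. At an unadjusted p under 0.05 they had 1926 to 2828 genes higher and 1741 to 2903 lower. A filter of at least 10 counts in every sample removed *Hdac10* and *Hdac11* and left 3 of 5 called lower (background of 15.0%) and 0 of 5 higher (background of 12.6%).

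**Figure D1:**
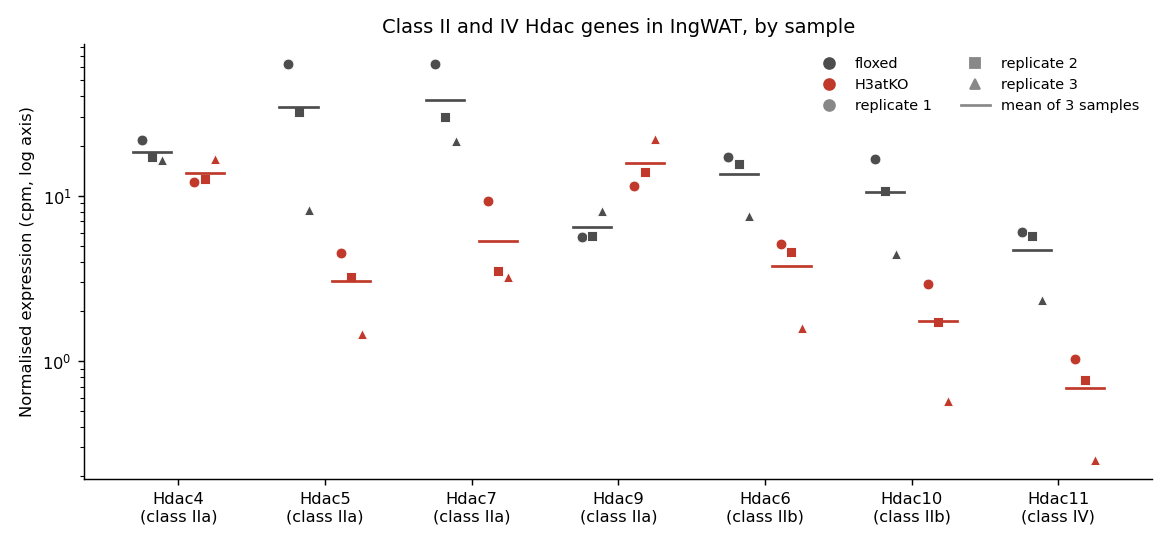
Normalised expression (cpm, log axis) of the 7 genes in each sample, with floxed samples in grey, H3atKO samples in red, a marker shape for each replicate number and a line at the mean of 3 samples. The points of the genotypes separate in every gene except *Hdac4*, and *Hdac9* is the gene in which the red points stand above the grey ones.

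The libraries of the genotypes differed in ways that bear on every value. The mitochondrial genome took 6.92 to 12.9% of the counts in floxed and 26.9 to 35.3% in H3atKO samples. How far a sample lay from the gene means followed the GC content of the longest transcript, with a Spearman rho over 14922 genes of 0.0969 to 0.800 in floxed and -0.711 to -0.433 in H3atKO samples. GC content and genotype therefore cannot be told apart in these data. The change of each of the 7 genes is given also after a correction that removes a smooth curve on GC content from every sample, which takes away any genotype effect that runs along GC content as well. After the correction 0 of the 7 genes were called by limma voom in either direction (backgrounds of 3.15% lower and 5.41% higher). At an unadjusted p under 0.05 there were 3 lower and 1 higher, against 2145 lower and 2464 higher of 14922 genes. The median log2 fold change was then -0.89 over the 7 genes and 0.02 over all tested genes. With both the block and the correction, *Hdac5* and *Hdac6* fell (2 of 7, background of 9.84%) and 0 of 7 were called higher (background of 12.9%). *Hdac9* was higher there at an unadjusted p under 0.05, as were 3244 of 14922 genes.

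**Figure D2:**
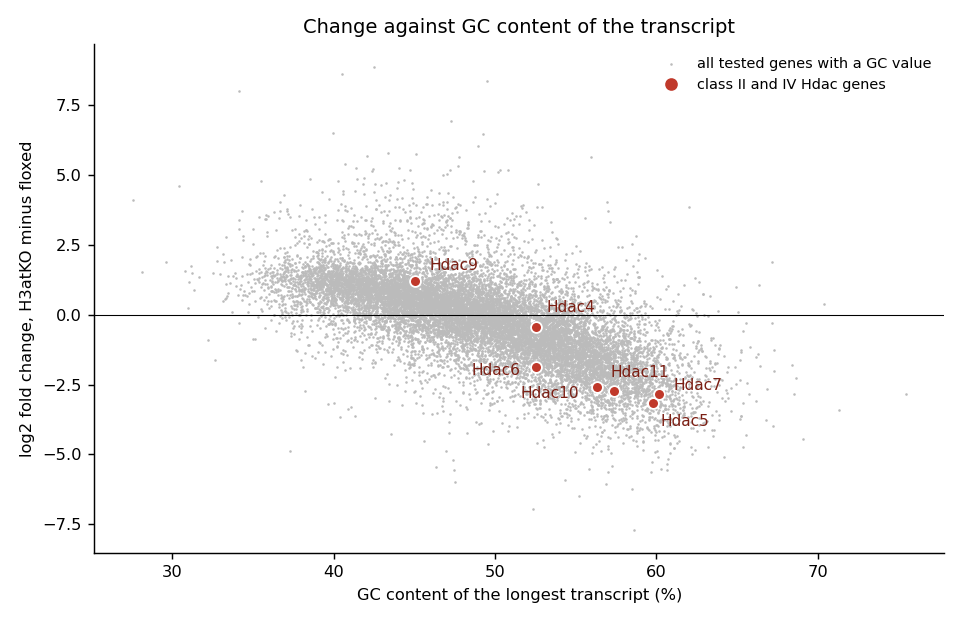
log2 fold change (H3atKO minus floxed) against the GC content of the longest transcript in percent, for each tested gene with a GC value (small grey points) and for the 7 genes of the family (red). The cloud falls from left to right, with *Hdac9* at 45.0% GC above 0 and the others, at 52.5 to 60.2% GC, below it.

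*Hdac5* had the largest log2 fold change of the family in size before GC correction, after which *Hdac6*, *Hdac10* and *Hdac11* had larger ones. This repressor of MEF2 lies at chr11:102194432-102230166 (minus strand, GRCm38) and its exons span 8780 bases. It stood at 62.9, 32.1 and 8.16 cpm in floxed replicates 1 to 3 and at 4.53, 3.21 and 1.45 cpm in H3atKO. The floxed samples differed among themselves by 7.71 times, and the lowest of them was still above every H3atKO sample. The means differed by 11.2-fold (34.4 ± 27.4 against 3.06 ± 1.54 cpm, SD, n = 3). On the log2 scale the change was -3.15 (SE 1.03) and did not pass in limma voom (adjusted p = 0.0649). With the replicate block it was -3.41 (adjusted p = 0.00288), and edgeR gave an adjusted p of 0.0253. After GC correction it was -0.89 (adjusted p = 0.159), and -0.96 with the block added (adjusted p = 0.0434).

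*Hdac7*, best known from endothelial cells and thymocytes, was the most abundant of the family per length in floxed samples. It lies at chr15:97792664-97844502 on the minus strand. Its level was 63.1, 30.1 and 21.6 cpm in floxed replicates 1 to 3 and 9.30, 3.52 and 3.22 cpm in H3atKO, so that the mean was 7.16-fold lower. The groups did not overlap. The log2 fold change of -2.83 (SE 0.63) passed in limma voom (adjusted p = 0.0327). The call was lost after GC correction, with -0.52 (adjusted p = 0.392), where the corrected values of the genotypes overlapped, and with the block and the correction together (-0.41, adjusted p = 0.365). The summed endothelial markers were also apart, at 636 to 962 cpm in floxed and 437 to 581 cpm in H3atKO samples. Of the 6, 2 fell (*Pecam1* and *Cdh5*, named after their values were seen, background of 7.07%). The other 4 were not called by limma voom, with log2 fold changes of -2.08 for *Tie1*, -0.63 for *Tek*, 0.30 for *Kdr* and 0.12 for *Emcn*. After GC correction 2 of the 6 were called lower (background of 3.15%), *Pecam1* at -1.33 (adjusted p = 0.0277) and *Tek* at -0.88 (adjusted p = 0.0371). The others then had -0.91 for *Cdh5*, -0.90 for *Emcn*, -0.20 for *Tie1* and 0.38 for *Kdr*. With the block and the correction 4 of the 6 were called lower and 0 higher (backgrounds of 9.84% and 12.9%). The part of endothelial cells in the change of *Hdac7* was not tested. The 29 exon bases that *Hdac7* shares with *Slc48a1* on the other strand are 0.429% of its exons. The counts of *Slc48a1* were 9258, 6719 and 2267 in the floxed and 1461, 1611 and 379 in the H3atKO samples, and its part in the counts of *Hdac7* was not tested.

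*Hdac4*, a MEF2 repressor that is retained in the cytoplasm by 14-3-3 binding, did not separate the genotypes. It lies at chr1:91928779-92195699 on the minus strand. The floxed samples had 21.8, 17.2 and 16.4 cpm and the H3atKO samples 12.1, 12.7 and 16.6 cpm. The highest H3atKO sample lay within the floxed range. The fitted log2 change was -0.44 (SE 0.29, adjusted p = 0.269) in limma voom and did not pass with the block (adjusted p = 0.170). Its direction flipped with the GC correction, at 0.33 (adjusted p = 0.425), and with library sizes alone as the scaling it was called lower, at -1.28 (adjusted p = 0.0184), as were 6 of the 7 genes (background of 37.9%), with 0 of 7 higher (background of 2.04%). The antisense gene *Gm26720* covers 22.4% of the exon bases of *Hdac4* and had 0 counts in every sample.

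*Hdac9* was the single gene of the family at a higher level in H3atKO samples. It restrains adipocyte differentiation in culture, and lies at chr12:34047580-34917095 on the minus strand. It had 5.64, 5.72 and 8.13 cpm in floxed replicates 1 to 3 and 11.5, 13.9 and 22.1 cpm in H3atKO. The lowest H3atKO sample was above the highest floxed sample, and the mean was 2.44-fold higher (6.50 ± 1.42 against 15.8 ± 5.57 cpm, SD, n = 3). The ratio of same-numbered samples was 2.04, 2.43 and 2.72 for replicates 1 to 3. Its log2 fold change was 1.22 (SE 0.37) and did not pass in limma voom (adjusted p = 0.0562). It passed in edgeR (adjusted p = 0.0400) and with the block (1.26, adjusted p = 0.00635). The corrected values of *Hdac9* did not overlap between genotypes, nor did those of *Hdac5*, *Hdac6*, *Hdac10* and *Hdac11*, which were lower in H3atKO samples. How many of all genes were apart after the correction was not counted. The log2 fold change of *Hdac9* was 0.70 (adjusted p = 0.117) after GC correction and 0.73 (adjusted p = 0.0634) with the block added.

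The raw counts of *Hdac9* show how far this difference rests on the scaling. They were 257, 238 and 335 in floxed and 279, 273 and 350 in H3atKO samples, in smaller H3atKO libraries. Scaled by library size alone, with no correction for composition, the log2 fold change was 0.39 (adjusted p = 0.441), while the median of all genes moved to -0.94. Against that median *Hdac9* remained the gene of the family that stood on the higher side.

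*Hdac6*, the tubulin deacetylase, was at a lower level in each H3atKO sample than in any floxed sample. It lies at chrX:7930120-7947889 on the minus strand. The floxed samples had 17.3, 15.6 and 7.55 cpm and the H3atKO samples 5.10, 4.59 and 1.58 cpm, a 3.59-fold difference of the means. On the log2 scale the change was -1.88 (SE 0.57), with an adjusted p of 0.0576 in limma voom, 0.0412 in edgeR and 0.00385 with the block. After GC correction it was -1.10 (adjusted p = 0.120), and with the block and the correction together it fell by 1.05 on the log2 scale (adjusted p = 0.0363).

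The transcripts of *Hdac6* and *Hdac4* have nearly the same GC content, 52.6% and 52.5%. This pair was chosen after the values had been seen, and *Hdac4* is the only gene of the family whose cpm overlapped between genotypes. A lower ratio in H3atKO samples follows from that choice, and other pairs of like GC content were not examined. *Hdac6* cpm divided by *Hdac4* cpm was 0.793, 0.912 and 0.460 in the floxed and 0.422, 0.360 and 0.0951 in the H3atKO samples. Every H3atKO ratio was below every floxed ratio. The mean log2 ratio was -0.53 in floxed and -2.04 in H3atKO samples, given as a description only.

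*Hdac10*, the polyamine deacetylase, was at 16.6, 10.7 and 4.47 cpm in floxed and 2.92, 1.73 and 0.569 cpm in H3atKO samples. It lies at chr15:89123307-89128700 on the minus strand. The highest H3atKO sample was below the lowest floxed sample, and the means differed by 6.08-fold. The smallest raw count was 9, in H3atKO replicate 3, so that counting error is largest there. The fitted log2 change was -2.59 (SE 0.79), with an adjusted p of 0.0581 in limma voom, 0.0345 in edgeR and 0.00304 with the block. After GC correction it was -0.99 (adjusted p = 0.146), and -0.87 with the block added (adjusted p = 0.0977).

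*Hdac11* was the least counted gene of the family in H3atKO samples. It lies at chr6:91156665-91174692 on the plus strand. Raw counts were 275, 239 and 96 in the floxed and 25, 15 and 4 in the H3atKO samples, which gave 6.03, 5.74 and 2.33 cpm and 1.03, 0.764 and 0.253 cpm. The groups did not overlap and the means differed by 6.89-fold. The log2 fold change of -2.74 (SE 0.75) passed in limma voom (adjusted p = 0.0480) and with the block (adjusted p = 0.00444). The call was lost after GC correction, at -0.90 (adjusted p = 0.207), and with the block and the correction, at -0.77 (adjusted p = 0.233). The antisense gene *Gm44002* shares 15.4% of the exon bases of *Hdac11*, and at most 1 count was given to it in any sample.

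**Figure D3:**
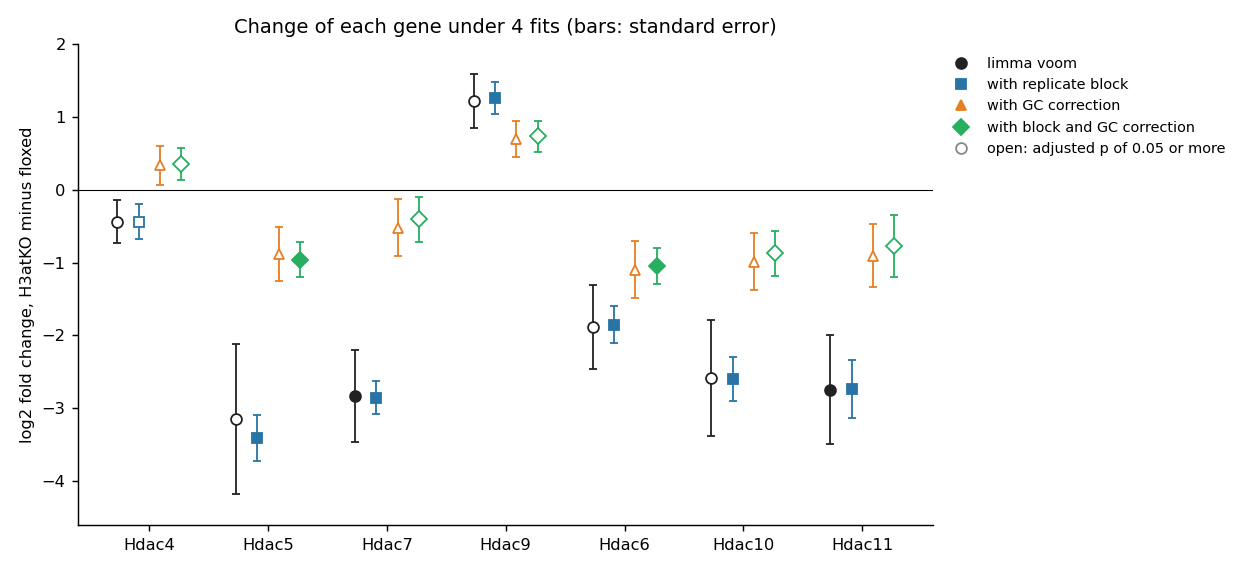
log2 fold change (H3atKO minus floxed) of each gene under limma voom, with the block, with GC correction and with both. Bars are standard errors and filled markers have an adjusted p under 0.05. The block shortens the bars of all 7 genes, and the correction brings the values of the other 6 nearer to 0 and moves *Hdac4* across it, from -0.44 to 0.33.

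Genes of similar GC content give a scale for these changes. All tested genes were divided into 10 bins of GC content. In the highest bin, which holds *Hdac5*, *Hdac7* and *Hdac11*, the median log2 fold change was -2.19, and the genes stood at percentiles 18, 26.7 and 30.1 of the bin. *Hdac10* was at percentile 14.5 of its bin, whose median was -1.58. *Hdac6* and *Hdac4* share a bin with a median of -0.66 and stood at percentiles 12.3 and 60.4. *Hdac9* was at percentile 81.4 of a bin with a median of 0.61. None of the 7 genes was therefore among the outer 10% of its bin in either direction.

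The change was also read within each replicate number. The log2 ratio of H3atKO to floxed was between -3.10 and -2.74 for *Hdac7*, between -2.26 and -1.76 for *Hdac6*, between -2.97 and -2.51 for *Hdac10*, between -3.21 and -2.55 for *Hdac11* and between -3.80 and -2.49 for *Hdac5* over the 3 numbers. For *Hdac9* it ran from 1.03 to 1.44. For *Hdac4* it was -0.85, -0.43 and 0.02. After GC correction the difference within replicate 1 was 0.19 for *Hdac7*, against -0.92 and -0.85 within replicates 2 and 3.

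The levels per length of exon were ranked within each genotype, with no correction for GC content in these levels or in the sums and shares made from them. In floxed samples, in cpm per kb of exon (mean ± SD, n = 3), *Hdac7* had 5.67 ± 3.25, *Hdac5* 3.91 ± 3.13, *Hdac10* 3.13 ± 1.80 and *Hdac6* 2.32 ± 0.895. *Hdac11* followed with 1.22 ± 0.535, *Hdac4* with 1.17 ± 0.185 and *Hdac9* with 0.443 ± 0.0967. Among neighbours in this order the ranges overlapped, except that every sample of *Hdac4* was above every sample of *Hdac9*. In H3atKO samples *Hdac9* came first with 1.08 ± 0.380, before *Hdac4* with 0.874 ± 0.155 and *Hdac7* with 0.791 ± 0.507. *Hdac6* had 0.646 ± 0.327, *Hdac10* 0.515 ± 0.348, *Hdac5* 0.349 ± 0.176 and *Hdac11* 0.177 ± 0.102, and all neighbours overlapped in range.

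The 7 levels per kb summed to 27.7, 16.9 and 8.94 in the floxed and 5.45, 4.14 and 3.71 in the H3atKO samples, a 4.03-fold difference of the means. The groups did not overlap. The sum of class IIa was 3.62-fold lower, that of class IIb 4.70-fold lower and *Hdac11*, alone in class IV, 6.89-fold lower (exact permutation test, two-sided, p = 0.1 in each, below which 3 against 3 cannot go). The H3atKO samples, in which the sum was lower, were those with the higher cpm of *Hdac9*.

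As a share of that sum, *Hdac9* went from 1.39, 2.30 and 6.20% in floxed to 14.4, 22.9 and 40.7% in H3atKO samples. *Hdac4* went from 4.97, 6.41 and 11.6% to 14, 19.5 and 28.3%, although its cpm overlapped. The share of *Hdac7* was 31.9% ± 4.93 (SD, n = 3) in floxed and 16.9% ± 7.24 in H3atKO, that of *Hdac5* 19.3% ± 7.98 and 7.59% ± 2.72, and that of *Hdac11* 7.08% ± 1.60 and 3.82% ± 1.78. For these 5 genes the shares did not overlap between genotypes (exact permutation test, p = 0.1, adjusted p = 0.14 over 7 genes). The share of *Hdac10* was 17.1% ± 2.03 and 10.9% ± 5.80 (exact permutation test, p = 0.2, adjusted p = 0.233). The share of *Hdac6* was 13.7% ± 2.68 and 14.2% ± 6.10 (exact permutation test, p = 0.9). The log2 ratio of *Hdac9* to *Hdac7* in cpm was -3.49, -2.40 and -1.41 in floxed and 0.30, 1.98 and 2.78 in H3atKO samples, with neither gene corrected for GC content. After the correction H3atKO replicate 1 had *Hdac9* at 3.38 and *Hdac7* at 3.89 on the corrected log2 scale, the same order as in the floxed samples.

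**Figure D4:**
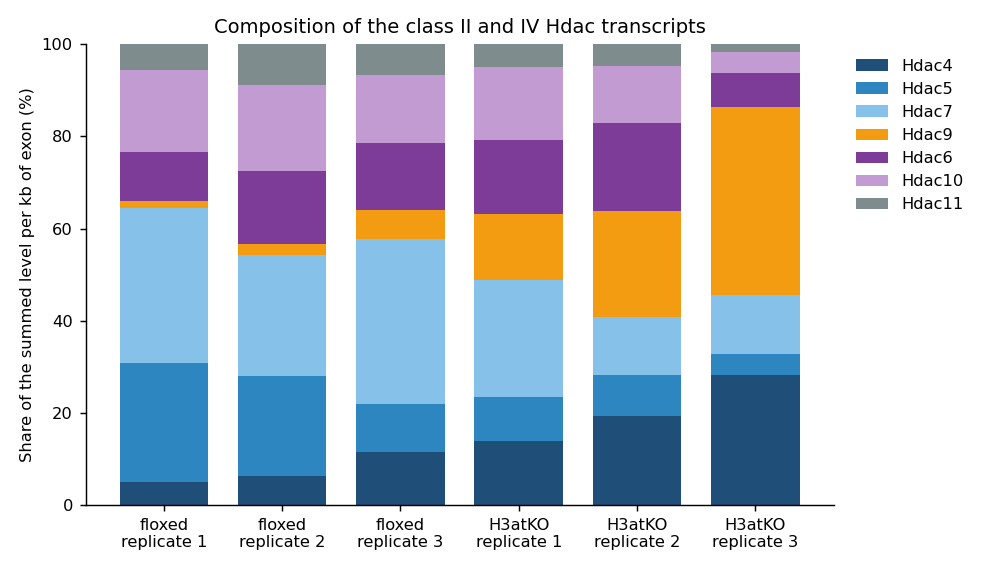
Share of each gene in the summed level per kb of exon of the 7 genes (%), 1 bar per sample. *Hdac9*, in orange, takes 1.39 to 6.20% of the floxed bars and 14.4 to 40.7% of the H3atKO bars, and *Hdac7* is the widest band of each floxed bar.

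Class I deacetylases serve as the reference for the targeted gene. *Hdac3*, the deleted gene and the catalytic subunit of the NCoR complex, had 68.8, 80.2 and 65.8 cpm in floxed and 27.4, 21 and 12.9 cpm in H3atKO samples. It fell by 1.83 on the log2 scale (SE 0.32, adjusted p = 0.0213), and after GC correction the change was -2.08 (adjusted p = 0.0185). *Hdac2*, a subunit of the Sin3, NuRD and CoREST complexes, rose from 49.1, 62.8 and 98.2 cpm to 141, 157 and 176 cpm, with a log2 fold change of 1.23 (SE 0.30, adjusted p = 0.0386). After GC correction the value of *Hdac2* was 0.31 (adjusted p = 0.242). Its relative *Hdac1* had -0.37 (adjusted p = 0.334). *Hdac8*, which acts on cohesin, had -0.46 (adjusted p = 0.325), and block and correction together called it lower, at -1.27 (adjusted p = 0.0190).

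Counts of called genes in the lists below, cell markers included, are read against the shares of all tested genes called higher and lower. These were 9.42% and 7.07% in limma voom, 12.8% and 18.4% in edgeR, and 19.7% and 23.2% in DESeq2. With the block they were 24.8% and 28.7%, after GC correction 5.41% and 3.15%, and with both 12.9% and 9.84%. At an unadjusted p under 0.05, limma voom had 3056 of 14967 genes higher and 3506 lower. Among the 4 genes examined of the NCoR corepressor, which tethers HDAC3 and class IIa proteins to chromatin, 2 rose and 0 fell with limma voom, and the median was 0.69. *Tbl1xr1*, a WD40 subunit of the complex, rose from 35.7, 36.0 and 58.3 cpm to 156, 170 and 254 cpm. Its log2 fold change was 2.16 (adjusted p = 0.0136), and it also rose after GC correction (1.24, adjusted p = 0.0134). The related *Tbl1x* rose by 1.20 on the log2 scale (adjusted p = 0.0386), and by 0.79 with the block and the correction (adjusted p = 0.0391), while with the correction alone it had the same size and did not pass (adjusted p = 0.102). The scaffold *Ncor1* had 0.19 (adjusted p = 0.576). *Gps2*, a further subunit, had -1.19 (adjusted p = 0.0760). It was the 1 gene lower at an unadjusted p under 0.05 and the 1 called lower by edgeR, by DESeq2 and with the block, and after GC correction it changed direction, to 0.49 (adjusted p = 0.254).

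MEF2 factors recruit class IIa proteins to their targets. Of the 4 genes 3 were tested, since *Mef2b* had 0 counts in every sample, and 1 rose and 0 fell. *Mef2a* went from 85.7, 102 and 151 cpm to 200, 237 and 300 cpm, with a log2 fold change of 1.14 (adjusted p = 0.0421) that was 0.23 after GC correction (adjusted p = 0.318). *Mef2c* had 1.42 (adjusted p = 0.0597), with 32.5 to 90.3 cpm in floxed and 86.5 to 160 cpm in H3atKO samples. It was called higher with the block (1.43, adjusted p = 0.00741) and had 0.40 after GC correction (adjusted p = 0.374). *Mef2d* had -0.67 (adjusted p = 0.144), and 0.61 after the correction (adjusted p = 0.0556). The block alone called it lower (-0.69, adjusted p = 0.0208), and block and correction together called it higher (0.61, adjusted p = 0.0415). At an unadjusted p under 0.05, 2 were higher and 0 lower. The edgeR test called 1 higher and 0 lower, DESeq2 2 and 0, and the block 2 higher and 1 lower. Of 6 listed target genes of MEF2, 0 were called in either direction by limma voom, with 1 higher and 1 lower at an unadjusted p under 0.05 and the same counts by edgeR and by DESeq2. The median of the 6 was -0.38. After GC correction it was 0.73 with 1 gene called higher (*Jun*, named after its values were seen), and with the block added 2 were called higher.

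Of 16 kinases that phosphorylate class IIa proteins, 1 rose and 1 fell (backgrounds of 9.42% and 7.07%), with a median of -0.17. The counts were 2 and 3 with edgeR (12.8% and 18.4%) and 4 and 5 with the block (24.8% and 28.7%). After GC correction they were 1 and 2 (5.41% and 3.15%). *Prkaa2*, a catalytic subunit of the energy sensor AMPK, went from 11.4, 17.3 and 33.8 cpm to 66.8, 108 and 49.6 cpm. The change was 1.93 on the log2 scale (adjusted p = 0.0365) and 0.90 after GC correction (adjusted p = 0.212). *Camk1*, a calmodulin-dependent kinase, fell from 73.6, 71.4 and 53.8 cpm to 15.6, 18.7 and 15.5 cpm. Its log2 fold change was -1.99 (adjusted p = 0.0126), and it fell also after GC correction (-1.73, adjusted p = 0.0116). Of the 7 genes of 14-3-3 proteins, 0 were called by limma voom or by edgeR, and 3 were higher and 0 lower at an unadjusted p under 0.05. DESeq2 called 2 higher and 1 lower, as did the block, and after GC correction 1 was called higher and 0 lower.

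Of 10 substrates and partners of HDAC6, 2 rose and 1 fell (backgrounds of 9.42% and 7.07%), and 3 and 3 with the block (24.8% and 28.7%). After GC correction 2 were called higher and 1 lower (5.41% and 3.15%), with *Plaa* and *Sirt2* not among them. *Plaa*, a ubiquitin-binding protein, rose by 1.69 on the log2 scale (adjusted p = 0.0241), and had 0.49 after GC correction (adjusted p = 0.272). *Sirt2*, a second tubulin deacetylase, fell by 1.56 on the log2 scale (adjusted p = 0.0459), from 83.7, 55.6 and 40.2 cpm to 24.6, 24.0 and 11.4 cpm, and had -0.49 after GC correction (adjusted p = 0.167). *Hdac6* and *Sirt2* were thus both lower in every H3atKO sample than in any floxed sample, as were 28.6% of all tested genes.

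Of 10 genes of polyamine metabolism, listed for *Hdac10*, 1 rose and 0 fell in limma voom (backgrounds of 9.42% and 7.07%). The counts were 2 and 2 with the block and with DESeq2, 1 and 1 with edgeR, and 3 and 3 at an unadjusted p under 0.05. After GC correction 2 were called higher and 0 lower (5.41% and 3.15%), with *Azin1* not among them. *Azin1*, an inhibitor of the antizymes that turn over ornithine decarboxylase, rose from 53.3, 53.6 and 91.2 cpm to 176, 195 and 253 cpm (log2 fold change 1.69, adjusted p = 0.0217), and had 0.58 after GC correction (adjusted p = 0.0777). Of 3 substrates and partners of HDAC11, 1 fell and 3 fell with the block, while 0 rose in limma voom, in edgeR and in DESeq2 and 0 were higher at an unadjusted p under 0.05. *Akap12*, a scaffold of protein kinase A, fell from 194, 226 and 82.0 cpm to 30.8, 58.1 and 34.5 cpm (log2 fold change -1.96, adjusted p = 0.0351), and had -1.27 after GC correction (adjusted p = 0.0805), which passed with the block added (-1.28, adjusted p = 0.0303). The serine hydroxymethyltransferase *Shmt2* had -1.92 (adjusted p = 0.103). It fell with the block (-1.90, adjusted p = 0.00738) and had -0.09 after GC correction (adjusted p = 0.893). The bromodomain protein *Brd2* had -0.63 (adjusted p = 0.112), and 1.29 after GC correction (adjusted p = 0.0580). The block alone called *Brd2* lower (-0.63, adjusted p = 0.0248), and block and correction together called it higher (1.29, adjusted p = 0.0169).

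Of 7 sirtuins, the NAD-dependent deacetylases, 1 fell (*Sirt2*) and 0 rose in limma voom, with 3 lower and 1 higher at an unadjusted p under 0.05 and in edgeR and DESeq2, and 4 lower and 1 higher with the block. After GC correction 0 sirtuins were called. Of 10 histone acetyltransferases 1 rose and 1 fell (3 and 2 with the block), and after GC correction 2 were called higher and 0 lower. *Hat1*, which acetylates new histone H4, rose from 9.17, 13.8 and 21.2 cpm to 37.1, 40.4 and 50.8 cpm, with a log2 fold change of 1.61 (adjusted p = 0.0320) that also passed after GC correction (0.98, adjusted p = 0.0412). *Kat2a*, the catalytic subunit of SAGA, fell by 2.41 on the log2 scale (adjusted p = 0.0447), and had -0.56 after GC correction (adjusted p = 0.199).

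**Figure D5:**
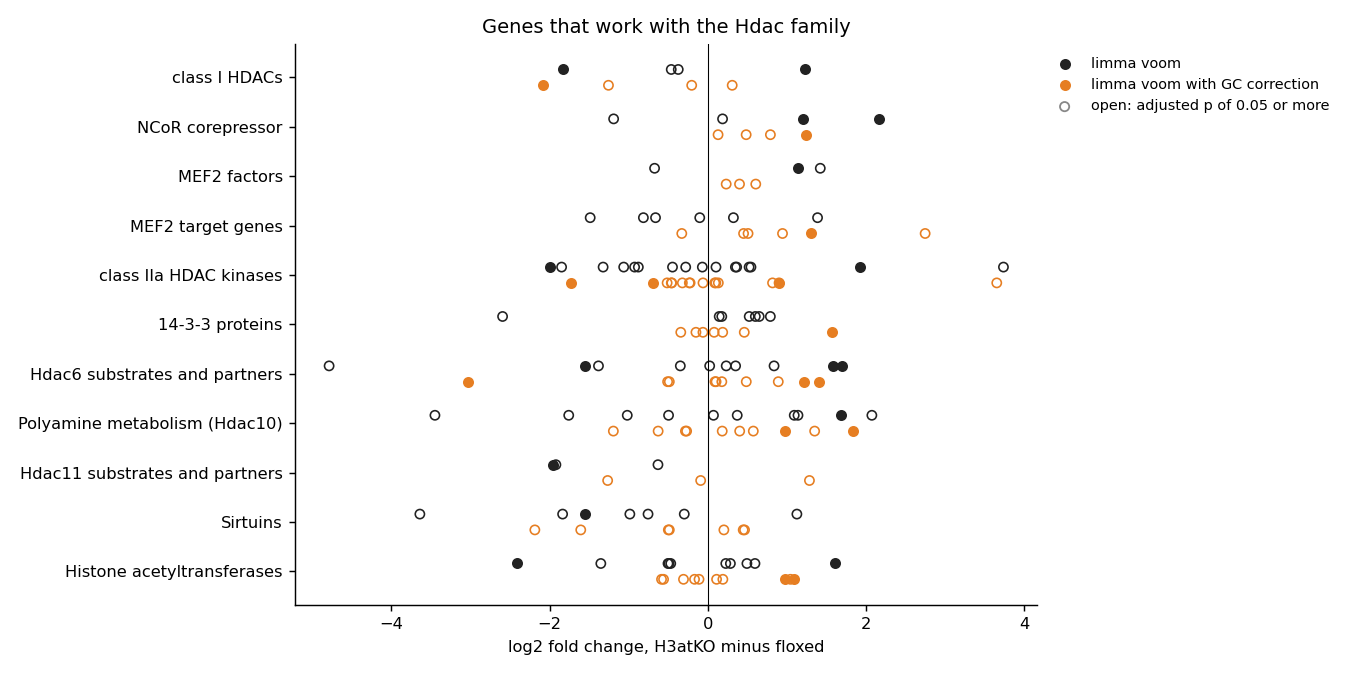
log2 fold change (H3atKO minus floxed) of every tested gene of the 11 lists named on the vertical axis, with limma voom (black) and with limma voom after GC correction (orange). Filled points have an adjusted p under 0.05. In the first row the filled black points are *Hdac3* at -1.83 and *Hdac2* at 1.23.

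The genes whose centred log2 cpm over the 6 samples were closest to each of the 7 were found among 8240 protein-coding genes, by the root mean square (RMS) difference. They were *Elp5* (0.0722) and *Ddb1* (0.0891) for *Hdac6*, *Atp11a* (0.0742) and *Maml1* (0.0792) for *Hdac4*, and *Hnrnpa2b1* (0.0830) for *Hdac9*. For *Hdac11* they were *Pfdn5* (0.102) and *Aqp1* (0.157), for *Hdac10* *Ehmt2* (0.118) and *Fis1* (0.126), for *Hdac7* *Ucp2* (0.149) and *Rasa4* (0.155), and for *Hdac5* *Rpl41* (0.206) and *Tspo* (0.213). The gene named for *Hdac9* had 43.6% GC and those of the other genes 52.0 to 60.8%.

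Marker genes of adipocytes were present in every sample. They summed to 13362 to 28794 cpm in floxed and 15362 to 26536 cpm in H3atKO samples. Most of the sum was *Fabp4*, with means of 15894 and 16320 cpm. Of the 7 markers 0 were called by limma voom. At an unadjusted p under 0.05 and in edgeR 0 were higher and 1 lower, and 0 and 2 in DESeq2 and with the block. The 7 log2 fold changes ran from -3.04 (*Lipe*) to 0.05 (*Fabp4*) around a middle value of -1.22. After GC correction the middle value was -0.42 and 0 were called. Block and correction together called 1 lower (*Lipe*, named after its values were seen, -1.62, adjusted p = 0.0365). *Lipe* had means of 751 and 70.0 cpm, and its groups did not overlap. Besides the endothelial sum, that of the 4 Schwann cell markers was apart, at 89.2 to 118 and 44.7 to 63.4 cpm, with 1 called lower. Of 5 smooth muscle and mural markers 3 were called lower (background of 7.07%), with sums of 399 to 1439 and 492 to 756 cpm. *Rgs5* was the 1 of them that went the other way, with means of 305 cpm in floxed and 583 cpm in H3atKO samples. Its log2 fold change was 0.98 in limma voom (adjusted p = 0.0703), and it was called higher with the block (0.98, adjusted p = 0.0114). After GC correction it had -0.02 (adjusted p = 0.977). The sum of 5 macrophage markers was 358 to 2057 and 326 to 580 cpm with 1 called lower, and that of 5 stromal markers 1309 to 4160 and 871 to 1482 cpm with 1 called lower. The sum of 7 skeletal muscle markers was 407 to 2439 and 1.96 to 3096 cpm. The sum of 5 B cell markers was 3.27 to 104 and 3.31 to 415 cpm, and that of 6 T cell markers 3.79 to 43.0 and 7.75 to 99.3 cpm. The B cell and T cell sums were highest in floxed replicate 1 and H3atKO replicates 1 and 3. The 5 epithelial markers, 2 of them tested, summed to at most 4.55 cpm. Of the skeletal muscle, B cell, T cell and epithelial markers 0 were called in limma voom and in edgeR, with 3 muscle markers lower and 1 T cell marker higher at an unadjusted p under 0.05, and DESeq2 called 1 B cell and 1 T cell marker higher. With the block 2 B cell and 3 T cell markers were called higher (background of 24.8%), and 1 and 4 with block and correction (background of 12.9%). The B cell and T cell sums were higher in H3atKO than in the floxed sample of the same number in all 3 numbers. The part of these cells in the values of the 7 deacetylases was not tested.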

How the data were processed

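Total RNA was made into poly(A)-selected stranded libraries. Per the submitters' processing notes, Cutadapt 1.3, STAR 2.4.2a and HTSeq 0.6.1 were used on GRCm38, and the strand setting of the counting is not given in the sources used here. The authors deposited raw counts per Ensembl gene, not normalized and not filtered. The 5 tally rows at the end of each file name no gene, held 37.3 to 51.7% of counts and tallies, and were left out of library sizes and tests. GENCODE M21 matched 46005 of 46517 identifiers.

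A gene was kept where any of the samples reached 1 cpm. Counts were scaled with TMM (edgeR 4.0.16) and compared with limma 3.58.1 voom in R 4.3.3, with Benjamini-Hochberg adjustment over all tested genes and calls at 0.05. Counts on genes ranged from 23865507 to 35200685, so that 3 counts are 0.0852 to 0.126 cpm of the library before TMM scaling, a floor for counting error only. No source says that pools were independent beyond separate mice, so p-values measure the spread between these samples. Exact permutation tests were two-sided (scipy 1.17.1).

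Same-numbered samples deviated together (correlations of 0.264 to 0.510 for the 3 numbers, against -0.295 to -0.0516 for different numbers, all 3 above 0.1), so the labels' replicate numbers were taken to pair the samples. The deviations were taken from the mean of each genotype and sum to 0 within it. Correlations for same and for different numbers are therefore not independent of each other. The rho with GC content also fell from replicate 1 to 3 in both genotypes. It was 0.800, 0.623 and 0.0969 in floxed and -0.433, -0.504 and -0.711 in H3atKO samples. The part of GC content in these correlations was not tested. For the GC correction, a robust loess curve (span 0.3) on the GC content of the longest transcript was subtracted from each sample's voom values. The other alternatives were edgeR's quasi-likelihood test, DESeq2 1.42.0, library sizes alone, RLE factors, other filters, sample quality weights, leaving out the mitochondrial genome, leaving out each sample, and other thresholds. The limma voom, edgeR, DESeq2, block and GC correction fits were run on simulated counts with known changes. The simulated samples were not paired by number, so the block was not tested on paired samples. Where GC curves had been added, uncorrected limma voom was not held to the limit set on false calls.

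Genes named are the 7 deacetylases, every gene of the class I, corepressor, MEF2 factor and HDAC11 partner lists, the called gene with the largest rise and the largest fall of each further pathway list (11 pathway lists in all), and for each deacetylase the 2 protein-coding genes with the nearest pattern among those with a mean of at least 3 log2 cpm. A few genes of these sets are not reported here. The 10 marker lists were summed in cpm. The members, lists and tests were chosen with earlier results of these data known.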

Additional observations from a re-analysis of the deposited data

How the results depend on the processing

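The 18 alternatives to limma voom (17 for *Hdac10* and *Hdac11*, which the filter of at least 10 counts in every sample removed) moved calls more than directions. The number of the 7 genes called lower, 2 in limma voom, was 5 with edgeR, DESeq2, sample quality weights, the replicate block or a threshold of 0.1, 6 with library sizes alone, 0 after GC correction, a threshold of 0.01 or only the 4 inner samples (floxed replicate 1 and H3atKO replicate 3 left out, chosen after seeing the data), and 0 to 5 when single samples were left out. The number called higher, 0 in limma voom, was 1 with edgeR, DESeq2, quality weights, the block or a threshold of 0.1, and 0 to 1 when single samples were left out. With the 4 inner samples, 1 of the 7 was lower and 0 higher at an unadjusted p under 0.05, against 1289 lower and 1588 higher of 14673 tested genes. The direction of *Hdac4* reversed to 0.33 with the GC correction and 0.35 with block and correction, and with library sizes alone it was called lower (-1.28). The other 6 kept their direction in every alternative.

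*Hdac5*, not called in limma voom, was called with edgeR (-3.48), DESeq2 (-3.42), library sizes alone (-4.04), at least 10 counts (-3.32), quality weights (-3.30), the block (-3.41) and block with correction (-0.96). *Hdac6* was called with the same alternatives (-1.84, -1.78, -2.76, -2.04, -1.94, -1.85 and -1.05). *Hdac10* was called with edgeR (-2.59), DESeq2 (-2.53), library sizes alone (-3.51), quality weights (-2.54) and the block (-2.60), and *Hdac9* with edgeR (1.28), DESeq2 (1.34), quality weights (1.26) and the block (1.26). *Hdac7* lost its call with the correction (-0.52), block and correction (-0.41) and 4 inner samples (-2.12), and *Hdac11* with the same 3 (-0.90, -0.77 and -1.997). Leaving out single samples gave -3.36 to -2.39 for *Hdac7*, -3.18 to -2.24 for *Hdac11*, -3.95 to -2.49 for *Hdac5*, -2.24 to -1.39 for *Hdac6*, -3.17 to -2.02 for *Hdac10* and 0.98 to 1.43 for *Hdac9*, with these 6 called without floxed replicate 3 and none called without any other sample. The cause was not tested.

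Over all genes, 1410 higher and 1058 lower in limma voom became 2749 lower with edgeR, 2935 and 3465 with DESeq2, 306 and 5667 with library sizes alone, 1864 lower with at least 10 counts, 4003 and 4440 with quality weights, 3717 and 4290 with the block, 807 and 470 with the correction, and 0 and 0 with the 4 inner samples (1588 and 1289 at an unadjusted p under 0.05). Leaving out single samples gave 1 to 2729 higher and 0 to 3828 lower. Of 611 values of the 34 other genes, 154 lost and 52 gained a call, 13 reversed, and the rest kept direction and call. The reversed ones were, with the correction and with block and correction, *Atp11a* (0.35 and 0.36), *Brd2* (1.29 and 1.29), *Gps2* (0.49 and 0.49), *Maml1* (0.93 and 0.96) and *Mef2d* (0.61 and 0.61), *Shmt2* with block and correction (0.068), and *Ncor1* with library sizes alone (-0.67) and quality weights (-0.11). Of 396 counts over the lists, 192 moved by more than 1.5 times.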
